A study of Mus musculus with 45 samples.

Results

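The 10 genes Axin2, Nkd1, Rnf43, Znrf3, Lgr5, Tbx3, Sp5, Oat, Slc1a2 and Rhbg were listed as Wnt feedback and target genes of pericentral hepatocytes, and were followed in mouse livers dosed with TCDD. They were listed by name, with earlier results of these data known, and 9 of the 10 were matched to gene identifiers in the count tables. All 9 had more than 4 reads in at least 1 liver, so none was lost to the detection filter, which left 17464 of 39179 annotated genes for testing. Rhbg, an ammonium transporter gene at chr3:88242874-88254709 on the minus strand (GRCm38), had no matching identifier and was not analysed here.

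RNA-Seq counts were available for 45 livers, 5 in each of 9 groups. Female C57BL/6 mice, labelled as ovariectomized, were gavaged with sesame oil vehicle or with TCDD at intervals of 4 days over 28 days, from postnatal day 28 on. The lowest doses were 0.01 and 0.03 µg/kg, followed by 0.1 and 0.3 µg/kg, then 1 and 3 µg/kg, and 10 and 30 µg/kg at the top. All groups shared the strain, sex, vehicle and schedule, and each of the 5 replicates was a separate animal. TCDD is the most potent of the dioxins and acts through a ligand-activated transcription factor, the aryl hydrocarbon receptor (AhR).

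The liver lobule is divided into zones, and hepatocytes around the central vein express other enzymes than those around the portal vein. Endothelial cells at the central vein release Wnt ligands and the R-spondin Rspo3, which keep β-catenin active in the neighbouring hepatocytes. β-catenin acts with TCF/LEF factors on target genes, several of which feed back on the pathway: Axin2 and Nkd1 restrain it inside the cell, Rnf43 and Znrf3 remove Frizzled receptors from the surface, and Lgr5 binds R-spondins and holds Rnf43 and Znrf3 back. Whole liver was sequenced, so the zone in which a transcript was made could not be checked, and fewer cells of a type cannot be told apart from less RNA per cell.

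Livers held 11767284 to 56509899 reads on genes, with a median of 17225047. Levels are given as CPM, read counts scaled to the library total with TMM factors, with the mean ± SD of 5 livers. Cyp1a1, the classical AhR target, lay at 1.34 to 16.6 CPM in the vehicle group. In 4 livers at 0.01 µg/kg Cyp1a1 lay at 1.18 to 4.54 CPM, while the replicate 5 liver held 69.7 CPM, and its summed macrophage markers were the highest of all livers at 955 CPM. In the 30 µg/kg group, the replicate 4 liver held the lowest summed macrophage markers (130.4 CPM against a group median of 366) and the lowest summed endothelial markers (221 against 323). Its summed stellate cell (504 against 595), cholangiocyte (53.7 against 58.2) and lymphocyte markers (3.90 against 6.89) were also the lowest of that group. Its summed hepatocyte markers, at 115294 CPM, were the group median. Both livers were kept. The edgeR tests of the Wnt genes were repeated without each, and those that moved are given beside the result. Correlations between genes were repeated only without the 0.01 µg/kg liver. Ratios, most similar genes, and counts of other lists and of markers were not repeated without either liver.

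RefSeq promoter sequences on GRCm38.p6, from 250 bases before to 50 after a transcription start, were on hand for 6 of the 10 genes. Shown are those of the 3 called genes with an entry (Slc1a2, Axin2 and Nkd1) and that of Sp5, the window richest in TCF/LEF letters. Capitals mark the letters CTTTG, the core bound by TCF/LEF factors, and GCGTG, the core of the dioxin response element bound by AhR. Both strands were searched, so the reverse complement of either core is in capitals too. The windows are chr2:102706188-102706487 (plus strand) for Slc1a2, chr11:108920099-108920398 (plus) for Axin2, chr8:88527383-88527682 (plus) for Nkd1 and chr2:70474673-70474972 (plus) for Sp5.
Slc1a2: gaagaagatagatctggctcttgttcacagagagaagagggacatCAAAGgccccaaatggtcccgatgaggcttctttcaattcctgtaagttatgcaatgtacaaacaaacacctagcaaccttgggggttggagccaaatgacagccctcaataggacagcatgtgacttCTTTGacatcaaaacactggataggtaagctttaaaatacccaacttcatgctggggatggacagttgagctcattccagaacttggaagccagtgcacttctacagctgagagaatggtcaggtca
Axin2: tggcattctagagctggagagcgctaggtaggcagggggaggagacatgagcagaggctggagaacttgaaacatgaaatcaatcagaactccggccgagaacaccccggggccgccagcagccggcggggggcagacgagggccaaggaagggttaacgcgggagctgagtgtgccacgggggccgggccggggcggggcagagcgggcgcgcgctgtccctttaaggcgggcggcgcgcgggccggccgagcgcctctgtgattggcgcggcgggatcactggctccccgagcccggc
Nkd1: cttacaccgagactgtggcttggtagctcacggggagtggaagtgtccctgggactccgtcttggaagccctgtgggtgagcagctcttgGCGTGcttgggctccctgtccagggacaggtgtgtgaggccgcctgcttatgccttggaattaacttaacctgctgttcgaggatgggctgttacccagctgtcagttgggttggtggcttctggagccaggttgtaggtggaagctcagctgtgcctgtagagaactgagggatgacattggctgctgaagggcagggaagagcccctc
Sp5: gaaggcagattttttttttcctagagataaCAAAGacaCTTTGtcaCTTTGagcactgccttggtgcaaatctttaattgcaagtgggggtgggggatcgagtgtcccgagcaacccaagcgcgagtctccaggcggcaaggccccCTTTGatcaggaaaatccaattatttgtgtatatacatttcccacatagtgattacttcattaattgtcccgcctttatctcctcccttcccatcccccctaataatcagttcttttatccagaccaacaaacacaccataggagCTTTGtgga
Sp5 held 5 TCF/LEF core matches, of which 2 go on with an A (CTTTGA, which contains the core and is counted under both), and Slc1a2 held 2, both of the longer form. The Axin2 and Nkd1 windows held 0 TCF/LEF cores, and Nkd1 held 1 dioxin element core. Over all 32851 promoters of the same length, 53.9% held the TCF/LEF core, 16.0% its longer form and 32.4% the dioxin element core. The Oat window and 1 of 2 Rnf43 windows held none of these letters, and the other Rnf43 window held 1 dioxin element core. The Slc1a2, Nkd1 and both Rnf43 windows lie inside the gene models used for positions, which start further upstream, so they are not at the start of those models.

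Of the 9 genes, 4 rose at the highest dose and 0 fell. Slc1a2, a glutamate transporter of pericentral hepatocytes, rose from 3 µg/kg. Axin2 rose from 10 µg/kg, and Tbx3, a T-box transcription factor, and Nkd1 rose at 30 µg/kg. By edgeR's quasi-likelihood test at an adjusted p under 0.05, 0 of 9 genes were called at any dose up to 1 µg/kg, where, from the lowest dose on, 0%, 0.0573%, 0.0229%, 0.464% and 1.76% of all tested genes were called. At an unadjusted p under 0.05, 1 of 9 passed at 1 µg/kg (Slc1a2) and 1 of 9 at 0.3 µg/kg (Nkd1), against 2270 and 1835 of 17464 tested genes that did so at these doses, and DESeq2 called 0 of 9 there too. At 3 µg/kg 1 of 9 was called, against 7.54% of all genes. At 10 µg/kg 2 of 9 were called, against 15.9%. At 30 µg/kg 4 of 9 were called, all higher, against 29.6% of all genes in either direction and 15.5% higher. Slc1a2 at 10 µg/kg was the 1 of 9 that also met the fold change cut-off of 2 there, against 5.55% of all genes. At 3 and 30 µg/kg 0 of 9 met it, against 2.97% and 11.4%. Over the 8 doses together, the F test called Axin2, Slc1a2 and Nkd1, or 3 of 9 genes, against 28.8% of all genes.

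**Figure D1:**
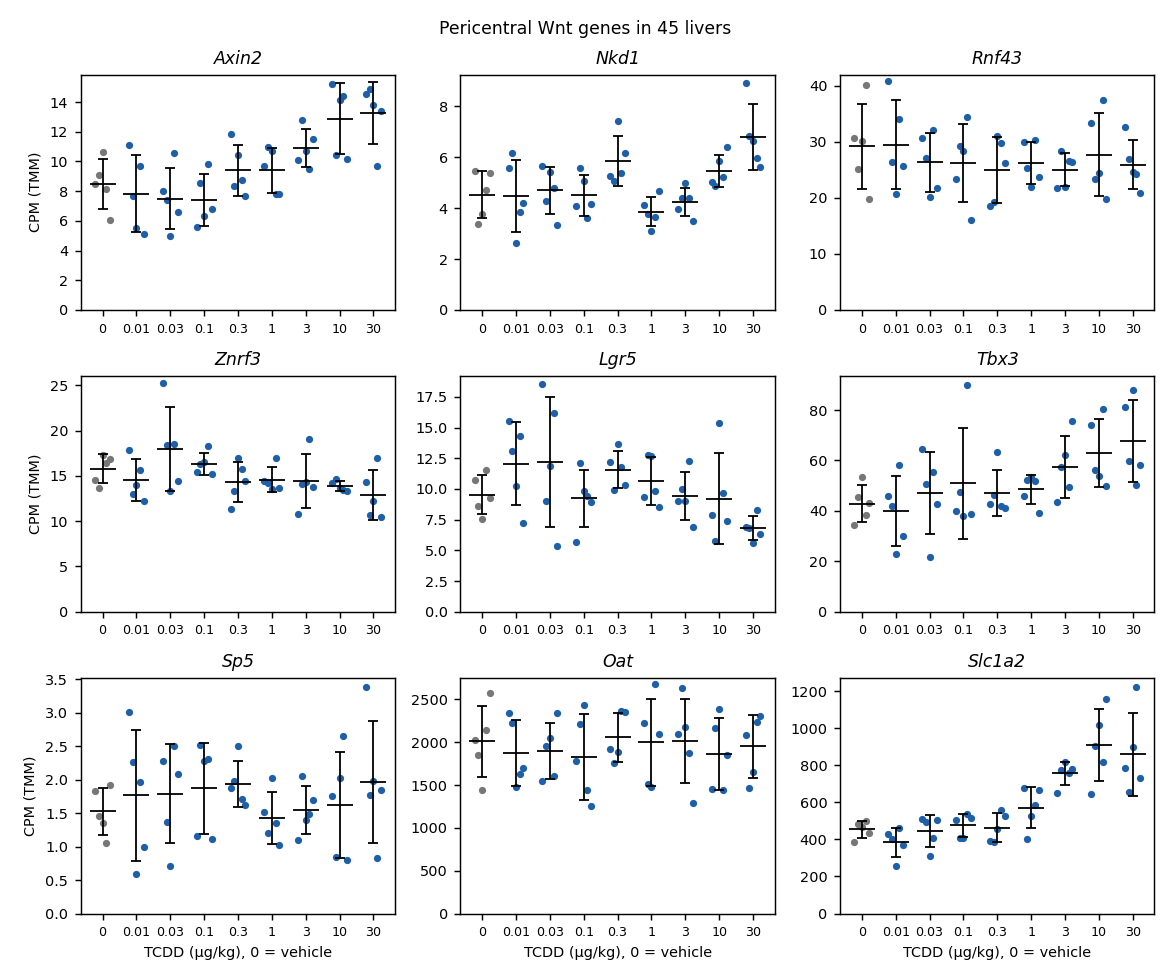
TMM-scaled CPM (vertical axis, from 0) of the 9 measured genes against the TCDD dose in µg/kg (horizontal axis, 0 for vehicle). Each point is a liver, with grey for vehicle and blue for TCDD, and bars give the mean ± SD of 5 livers: Slc1a2 climbed from a mean of 454 to 908 CPM at 10 µg/kg, while Oat stayed between means of 1827 and 2055.

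Both intracellular feedback inhibitors rose at 30 µg/kg. Axin2 (ENSMUSG00000000142; chr11:108920349-108950783, plus strand), the scaffold of the complex that destroys β-catenin, measured 8.49, 9.09, 10.7, 8.17 and 6.07 CPM in the 5 vehicle livers. The 10 µg/kg livers held 15.2, 10.4, 14.1, 14.4 and 10.1 CPM, and those given 30 µg/kg held 14.5, 14.9, 13.8, 9.69 and 13.4 CPM. At 30 µg/kg 4 of 5 livers and at 10 µg/kg 3 of 5 thus lay above every vehicle liver, and the replicate 4 liver at 30 µg/kg fell within the vehicle range. The log2 fold change was 0.60 ± 0.19 (SE, edgeR adjusted p = 0.0238) at 10 µg/kg and 0.65 ± 0.19 (adjusted p = 0.00852) at 30 µg/kg. The call at 10 µg/kg was lost without the replicate 5 vehicle liver (log2 fold change 0.50, edgeR adjusted p = 0.0876) or without the 10 µg/kg liver of replicate 1, 3 or 4 (adjusted p = 0.0844, 0.0544 and 0.0608), whereas that at 30 µg/kg held without any 1 liver (highest adjusted p = 0.0366). Axin2 differed in 9 of the 36 pairs of groups, all between 10 or 30 µg/kg and vehicle or a dose up to 0.3 µg/kg. At the 3 lowest doses the mean lay at 7.42 to 7.83 CPM, below the vehicle mean of 8.50 CPM, and these differences did not pass the test.

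Nkd1 (ENSMUSG00000031661; chr8:88521354-88594884, plus strand), which binds Dishevelled and dampens Wnt signalling, measured 5.45, 3.37, 3.76, 4.70 and 5.36 CPM in the vehicle livers. At 30 µg/kg the values were 8.93, 6.81, 6.65, 5.96 and 5.61 CPM, all above every vehicle liver, a separation that 10.3% of all tested genes showed in that direction. The rise was 0.59 ± 0.18 on the log2 scale (SE, edgeR adjusted p = 0.00929). Without the replicate 1 liver at 30 µg/kg, the highest of the group, it was 0.47 with an adjusted p of 0.0509. Nkd1 did not climb evenly with dose. Its mean was 5.86 ± 0.979 CPM at 0.3 µg/kg but 3.86 ± 0.573 and 4.23 ± 0.561 at 1 and 3 µg/kg, and 30 µg/kg exceeded both 1 µg/kg (log2 difference 0.82, edgeR adjusted p = 0.000744) and 3 µg/kg (0.68, adjusted p = 0.00714).

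The 3 feedback genes that act at the receptors were not called at any dose against vehicle. Rnf43 (ENSMUSG00000034177; chr11:87662722-87735539, plus strand), a membrane ubiquitin ligase, measured 30.8, 25.2, 30.1, 40.2 and 19.8 CPM in vehicle livers and 32.7, 27.02, 24.5, 24.3 and 20.9 CPM at 30 µg/kg. The ranges of both groups overlapped. Its log2 fold change at 30 µg/kg was -0.17 with a 95% interval from -0.57 to 0.22 (edgeR adjusted p = 0.552), or 0.0513 when counts were scaled to library totals alone, and 0 of 36 pairs of groups differed. Znrf3 (ENSMUSG00000041961; chr11:5276324-5444847, minus strand), the second ligase of this kind, measured 14.6, 13.6, 17.3, 16.5 and 16.9 CPM in vehicle livers and 14.3, 10.6, 12.2, 16.9 and 10.4 CPM at 30 µg/kg. In 3 of 5 livers at 30 µg/kg it lay below every vehicle liver. The log2 fold change was -0.29 ± 0.14 (SE and 95% interval -0.57 to -0.00036, edgeR adjusted p = 0.126). Without the replicate 4 liver at 30 µg/kg it was -0.41 and passed the test (adjusted p = 0.0274). Znrf3 was also lower at 30 than at 0.03 µg/kg, by a log2 difference of -0.48 (edgeR adjusted p = 0.00889), the only one of its 36 pairs to differ.

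Lgr5 (ENSMUSG00000020140; chr10:115450311-115587780, minus strand), the R-spondin receptor, was at its lowest at 30 µg/kg. Vehicle livers held 10.8, 8.59, 7.58, 11.5 and 9.25 CPM, and livers at 30 µg/kg held 6.90, 6.81, 5.62, 8.30 and 6.33 CPM. Below every vehicle liver lay 4 of the 5. A whole group lay below every vehicle liver in 9.57% of all tested genes, and in 19.9% the groups did not overlap in either direction. Lgr5, with 4 of 5 livers below, is not among these genes, and the share of genes with 4 of 5 was not counted. Against vehicle the log2 fold change was -0.49 ± 0.24 (SE and 95% interval -0.98 to -0.0029), which did not pass the test across all genes (edgeR adjusted p = 0.125). A fit of these 2 groups alone, which estimates the spread from 10 livers rather than 45, gave -0.50 with an adjusted p of 0.0138. Lgr5 was lower at 30 µg/kg than at 0.01 µg/kg (log2 difference -0.82, edgeR adjusted p = 0.00781), 0.03 µg/kg (-0.84, 0.00663) and 0.3 µg/kg (-0.77, 0.016). The spread between livers was wide at the low doses, with 12.2 ± 5.32 CPM at 0.03 µg/kg from values between 5.33 and 18.5 CPM.

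Among the transcription factors, Tbx3 (ENSMUSG00000018604; chr5:119670669-119684724, plus strand) measured 34.2, 45.4, 53.3, 38.5 and 43.0 CPM in vehicle livers. At 30 µg/kg the livers held 81.4, 59.9, 88.0, 50.2 and 58.3 CPM, so 4 of 5 lay above every vehicle liver. The log2 fold change was 0.66 ± 0.23 (SE, edgeR adjusted p = 0.0294), after 0.43 at 3 µg/kg (adjusted p = 0.298) and 0.55 at 10 µg/kg (adjusted p = 0.103). This call was the weakest of the 4. It was lost without the vehicle liver of replicate 1 or 4 (edgeR adjusted p = 0.0743 and 0.0607), or without the 30 µg/kg liver of replicate 1 or 3 (adjusted p = 0.0767 and 0.11), and also when p-values were adjusted over all 8 doses together. Sp5 (ENSMUSG00000075304; chr2:70474923-70477729, plus strand), a zinc finger repressor of Wnt targets, was the least abundant gene, with 9 to 99 reads a liver. It measured 1.84, 1.46, 1.36, 1.05 and 1.92 CPM in vehicle livers and 3.38, 1.77, 1.98, 0.836 and 1.84 CPM at 30 µg/kg. The groups overlapped, and the log2 fold change of 0.37 had a 95% interval from -0.35 to 1.09 (edgeR adjusted p = 0.464), which holds both a fall and a rise at this depth.

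Slc1a2 and Oat serve glutamate and ornithine metabolism in the same zone. Slc1a2 rose at 3 doses and Oat was not called at any, while the log2 ratio of Oat to Slc1a2 within a liver differed by -0.93 at 30 µg/kg and did not pass after adjustment (exact p = 0.0159, adjusted p = 0.0571). Slc1a2 (ENSMUSG00000005089; chr2:102658659-102790784, plus strand) measured 386, 483, 465, 498 and 437 CPM in vehicle livers. It measured 651, 775, 818, 758 and 782 CPM at 3 µg/kg, and 643, 903, 1018, 819 and 1159 CPM at 10 µg/kg. At 30 µg/kg the livers held 785, 653, 898, 1222 and 733 CPM. All 15 livers at these 3 doses lay above every vehicle liver. At 30 µg/kg 10.3% of all tested genes showed this separation, and the share at 3 and 10 µg/kg was not counted. The log2 fold changes at 3, 10 and 30 µg/kg were 0.74, 1.00 and 0.92, each with an SE of 0.16 (edgeR adjusted p = 0.00248, 1.51e-05 and 2.70e-05). The mean at 1 µg/kg was 572 ± 113 CPM, 1.26-fold the vehicle mean (adjusted p = 0.373). Slc1a2 differed in 17 of 36 pairs of groups, the most of the 9 genes, and no pair among its 3 highest doses passed the test. The replicate 4 liver at 30 µg/kg held the highest Slc1a2 of all 45, and without it the log2 fold change was 0.74 (edgeR adjusted p = 0.000362).

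Oat (ENSMUSG00000030934; chr7:132557478-132576398, minus strand), ornithine aminotransferase, was the most abundant gene of the set and did not differ in any of the 36 pairs of groups. Vehicle livers held 2032, 1849, 1448, 2147 and 2573 CPM and livers at 30 µg/kg held 2089, 1462, 1656, 2233 and 2312 CPM, with full overlap. The log2 fold change at 30 µg/kg was -0.04 with a 95% interval from -0.43 to 0.34 (edgeR adjusted p = 0.894). Scaled to library totals alone it was 0.162, and its sign also turned without the vehicle liver of replicate 5 or the 30 µg/kg liver of replicate 2 (0.0635 and 0.0443).

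**Figure D2:**
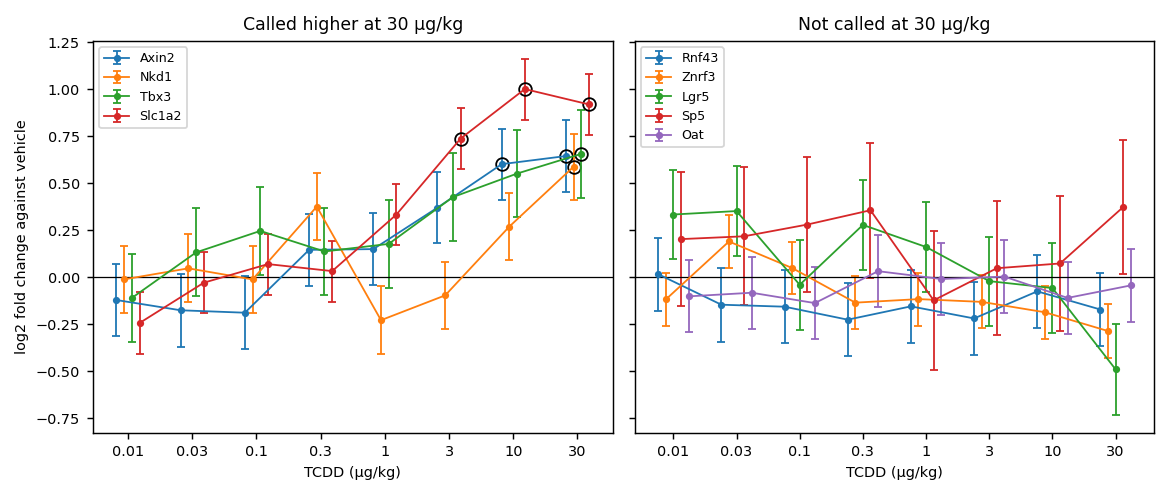
Log2 fold change against vehicle (vertical axis) at each TCDD dose in µg/kg (horizontal axis), with bars for the standard error from the fit of 45 livers and black rings for an adjusted p under 0.05. The left panel holds the 4 genes called at 30 µg/kg and the right panel the other 5, where Lgr5 reached -0.49 and Sp5 had the widest bars.

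The antisense genes Gm11670, Tbx3os1 and Gm13872 share 209, 115 and 189 exon bases with Axin2, Tbx3 and Slc1a2. The library kit does not mark the strand, so reads in these stretches cannot be told apart. With the groups of each gene sorted by their means, 0 of 72 contrasts between neighbours passed (lowest edgeR adjusted p = 0.409). Sorting puts the closest means side by side, so this describes the order of levels and is no test of the steps between doses. Per kilobase of exon, mean levels in vehicle livers ran from 852 RPKM for Oat and 34.5 for Slc1a2 to 6.47 for Tbx3, 4.46 for Rnf43, 2.0 for Znrf3 and 1.54 for Axin2. Nkd1, Lgr5 and Sp5 followed at 0.993, 0.929 and 0.727 RPKM. The 2 metabolic genes thus stood far above the signalling genes.

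Ratios of 2 genes within the same liver do not depend on scaling. All 36 ratios were compared between vehicle and 30 µg/kg by a two-sided exact permutation test, a comparison added after the values were seen. None passed after adjustment (lowest adjusted exact p = 0.0571), and 5 reached 0.00794, the smallest exact p that 5 against 5 livers allow. In these 5 the groups did not overlap. A lone ratio at this smallest p could not pass an adjustment over 36 ratios, however far its groups lay apart. Failing the adjustment therefore says little about any single ratio. The log2 ratio of Axin2 to Rnf43 was higher at 30 µg/kg, by 0.80. Against Slc1a2, the differences in log2 ratio were -1.38 for Lgr5, -1.20 for Znrf3 and -1.04 for Rnf43, and that of Lgr5 against Nkd1 was -1.08.

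Livers of the same dose also differed from each other, and Axin2, Tbx3, Sp5 and Rnf43 varied together among them. With each dose group's mean removed from log2 CPM (prior count of 2), 13 of 36 gene pairs had a Pearson correlation with an adjusted permutation p under 0.05, all positive, and 11 of them also passed by Spearman's rho. Pairs of other genes were not compared, so whether these counts exceed those of genes in general is not known. Axin2 and Tbx3 were closest, with r = 0.724 and rho = 0.711 over 45 livers (adjusted permutation p = 0.00024 and 0.00036), and r = 0.682 without the 2 livers farthest from the median. Axin2 and Sp5 followed (r = 0.707, rho = 0.673, adjusted permutation p = 0.00024 and 0.00045; 0.662 without the 2 livers), then Tbx3 and Sp5 (r = 0.694, rho = 0.645, the same adjusted p-values; 0.670 without the 2 livers). The 2 ligases Rnf43 and Znrf3 gave r = 0.526 and rho = 0.623 (adjusted permutation p = 0.00072 and 0.00045; 0.584 without the 2 livers). Slc1a2, which changed most with dose, did not follow Axin2 (r = -0.029, rho = -0.072, adjusted permutation p = 0.891 and 0.815; -0.148 without the 2 livers). Without the replicate 5 liver at 0.01 µg/kg, 9 pairs passed, and the same number passed in the 25 livers of vehicle and 0.01 to 0.3 µg/kg. Axin2 with Tbx3, Sp5 and Rnf43 passed in both. These livers share depth, scaling and sequencing pools that the labels do not give, and the part of these in the correlations was not tested.

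**Figure D3:**
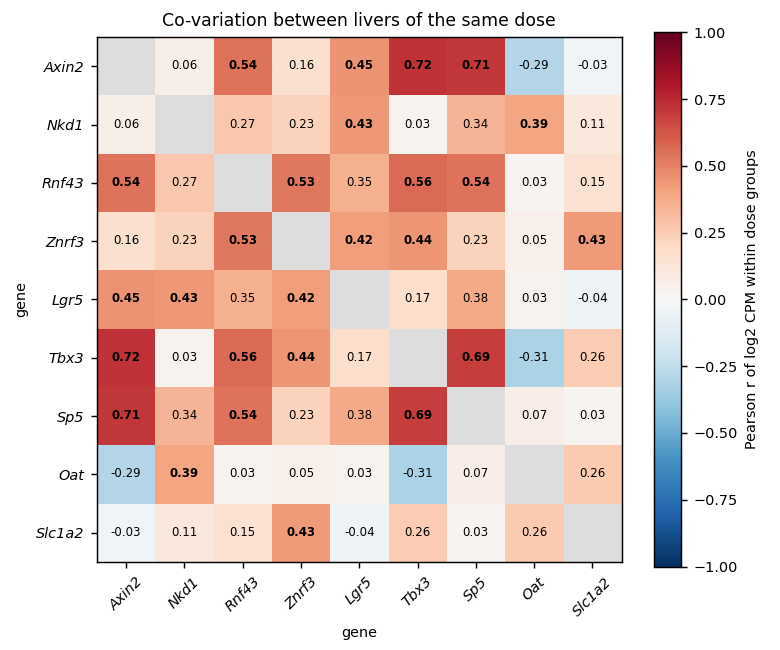
Pearson correlation between genes (both axes) of log2 CPM after removal of each dose group's mean, over 45 livers; the colour runs from -1 (blue) to 1 (red). Bold values have an adjusted permutation p under 0.05: Axin2, Tbx3, Sp5 and Rnf43 form the darkest cells, with 0.72 for Axin2 and Tbx3.

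Genes with the pattern most like a called gene were sought among 12309 genes with a mean of at least 1 CPM, by the root mean square difference of centred log2 CPM over 45 livers. Closest to Axin2 were Tgfa, a growth factor (0.262), and AI464131 (0.276). For Tbx3 they were Iffo2 (0.275) and Axin2 itself (0.279). Slc1a2 was nearest to the asparaginase gene Asrgl1 (0.218) and Lmo7 (0.239), and Nkd1 to the lamin gene Lmna (0.263) and Aktip (0.272). A flat gene would differ by the SD of the called gene itself. This SD was 0.415 for Axin2, 0.429 for Tbx3, 0.493 for Slc1a2 and 0.344 for Nkd1, so the likeness to Nkd1 was loose. At 30 µg/kg Lmna and Aktip rose by 0.32 and 0.23 on the log2 scale, against 0.59 for Nkd1.

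Genes of the pericentral zone outside this set were called lower more than higher. Of 15 listed, 2 rose and 7 fell at 30 µg/kg, where 15.5% of all tested genes were higher and 14.1% lower. The median log2 fold change was -0.46, against 0.02 over all tested genes. For the 9 Wnt genes the median was 0.37, which is the value of Sp5, a gene of few reads that was not called. The other list was not screened for Wnt targets and can hold some. The medians of the 2 lists therefore do not set Wnt targets against other pericentral genes. Lgr5, Znrf3, Rnf43 and Oat had negative values. Glul, glutamine synthetase and the classical pericentral marker, measured 1464 ± 88.9 CPM in vehicle livers and 1062 ± 223 at 30 µg/kg (log2 fold change -0.46 ± 0.16 SE, edgeR adjusted p = 0.0227). Cyp2e1 fell by 0.48 (adjusted p = 0.0224), Lect2, a secreted hepatokine, by 1.61, the vasopressin receptor gene Avpr1a by 3.01, Rgn, of ascorbate synthesis, by 1.03 and the fatty aldehyde dehydrogenase gene Aldh3a2 by 0.73 on the log2 scale. Cyp1a2, a direct AhR target, rose by 3.97, and Gulo, also of ascorbate synthesis, by 0.59. At 10 µg/kg the list stood at 2 higher and 4 lower, where 15.9% of all tested genes were called in either direction.

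The periportal list also held more lower than higher genes. Of 15 listed, 3 rose and 7 fell at 30 µg/kg, against 15.5% higher and 14.1% lower of all tested genes, with a median log2 fold change of -0.50. Uroc1 and Hal, of histidine breakdown, fell by 0.69 and 1.05 on the log2 scale, the glutaminase gene Gls2 by 0.89 and Cps1, which starts the urea cycle, by 0.99. The E-cadherin gene Cdh1 rose by 1.15, Aldh1b1 by 0.73 and Hsd17b13 by 0.33.

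**Figure D4:**
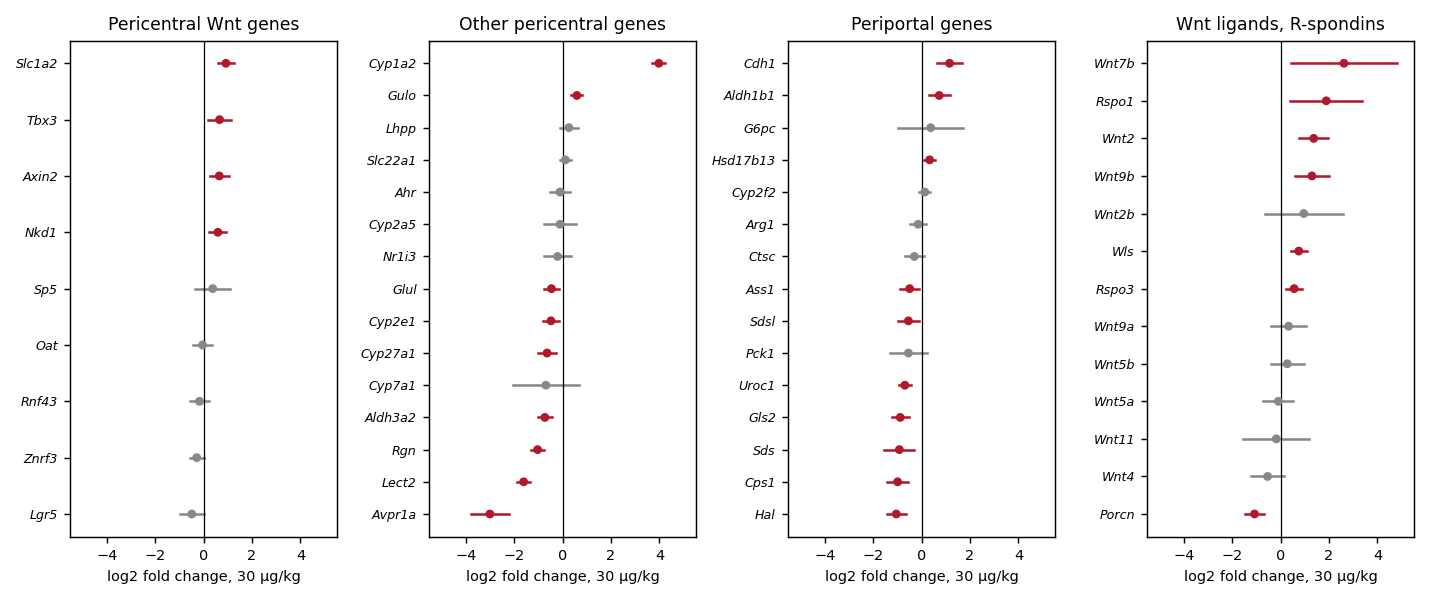
Log2 fold change at 30 µg/kg against vehicle (horizontal axis) with its 95% interval for the 9 Wnt genes, 15 other pericentral genes, 15 periportal genes and 13 Wnt ligand genes (vertical axes), in red where the adjusted p was under 0.05. All called Wnt genes lie right of 0, while the uncalled Lgr5, Znrf3, Rnf43 and Oat lie left of it. Of the called genes, 7 each of the other pericentral and the periportal lists lie left of 0, and 2 and 3 lie right.

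Upstream, several genes for Wnt ligands and their release rose at 30 µg/kg. Of 18 listed, 13 were tested, and 6 rose and 1 fell, against 15.5% and 14.1% of all tested genes, with a median log2 fold change of 0.56. Wnt2, a ligand of liver endothelium, went from 1.99 ± 0.742 CPM (1.08 to 3.11) in vehicle livers to 4.45 ± 1.22 (3.11 to 5.44) at 10 µg/kg. In the 30 µg/kg livers it reached 5.11 ± 1.08 CPM (3.34 to 6.07). The rise at the top dose was 1.36 ± 0.30 on the log2 scale (SE, edgeR adjusted p = 0.000482). Every liver at 30 µg/kg lay above every vehicle liver, as it did for 10.3% of all tested genes. Rspo3 rose by 0.56 (adjusted p = 0.00923), from 6.48 ± 2.45 to 9.49 ± 0.756 CPM, with the highest vehicle liver at 10.8 CPM. Wnt9b rose by 1.29 (adjusted p = 0.00397), from 0.818 ± 0.163 to 2.0 ± 0.297 CPM, and Wls, the carrier of Wnt proteins, by 0.75. Porcn, which adds the lipid that Wnt proteins need, fell by 1.08. The other genes that rose, Wnt7b and Rspo1, had at most 7 and 10 reads in any liver at 30 µg/kg.

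Markers of liver endothelium were also called higher, and whether they moved with these ligands from liver to liver was not tested. At 30 µg/kg 8 of 10 rose and none fell, among them Pecam1 (log2 fold change 0.99), Thbd (1.36), Cdh13 (1.06) and Fcgr2b (0.77), and the summed level went from 178 to 235 CPM in vehicle livers to 221 to 359 CPM. Of the other cell types, 4 of 8 stellate cell markers (Reln, Col1a1, Col3a1 and Dcn among the named), 3 of 8 macrophage markers (Cd68, Csf1r and Itgam) and 4 of 8 lymphocyte markers rose, and 0 of 7 cholangiocyte markers passed, against 15.5% higher of all tested genes. Scaled to library totals alone, 7 stellate cell and 5 macrophage markers were higher. Summed levels went from 268 to 376 CPM in vehicle livers to 504 to 705 CPM at 30 µg/kg for stellate cells, from 153 to 235 to 130.4 to 394 for macrophages, and from 2.28 to 3.68 to 3.90 to 8.41 for lymphocytes. Hepatocyte markers were highly abundant in every liver, with a summed level of 109396 to 159612 CPM at 30 µg/kg. Of these markers 5 of 7 fell, against 14.1% lower of all tested genes, Apoa1 most (log2 fold change -1.67). No marker was at 0 in all livers. The part of these shifts in the levels of the Wnt genes was not tested.

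Receptors and transducers moved in both directions. Of 13 receptor genes tested, 3 rose and 3 fell at 30 µg/kg, against 15.5% and 14.1% of all tested genes, and scaling to library totals alone left 1 lower. Fzd7 (log2 fold change 0.65) and the co-receptor gene Lrp5 (0.74) rose, and Fzd8 (-1.15), Fzd5 (-0.79) and Lrp6 (-0.49) fell. Lgr4, the widely expressed relative of Lgr5, measured 97.8 ± 4.37 CPM in vehicle livers and 81.8 ± 11.8 at 30 µg/kg (log2 fold change -0.26, edgeR adjusted p = 0.0927). Of 21 transducer genes, 3 rose (Bcl9, Btrc and Csnk1e) and 3 fell, close to the 15.5% and 14.1% of all tested genes. When counts were scaled to library totals alone, 9 were higher and 1 lower. Ctnnb1, which encodes β-catenin, was among those that fell, from 220.2 ± 19.3 to 175.9 ± 5.70 CPM (log2 fold change -0.32 ± 0.07 SE, edgeR adjusted p = 0.000677), as was Tnks2 (-0.33), a tankyrase that marks axin for destruction. Tcf7l2, the main TCF factor of liver, measured 20.2 ± 3.39 and 23.01 ± 6.18 CPM and did not pass the test. Of 12 inhibitor genes tested, 3 rose and 2 fell, against 15.5% and 14.1% of all tested genes. Dkk3 (1.47) and Tle3 (0.55) were higher and Tle1 (-0.53) and Amer1 (-0.61) lower. Of 12 general Wnt target genes tested, 3 rose and none fell, against the same 15.5% and 14.1%. Those that rose were Tnfrsf19 (1.44), Cd44 (1.08) and Mmp7, which had at most 2 reads in any vehicle liver and 23 to 46 at 30 µg/kg.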

How the data were processed

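Livers of 45 mice were sequenced as single 50-base reads after poly(A) library preparation. Per the study's methods, reads were mapped to GRCm38 (release 74) with TopHat 1.4.1, and the authors counted reads per Ensembl gene with HTSeq 0.6.1 in intersection-nonempty mode. The deposited tables hold these raw counts, 1 file per liver, and the 5 summary lines of each file were left out. Unique reads that fell off genes or were ambiguous made up 10.7% to 18.4% of a liver's unique reads. Alignments that were not unique are outside this share. No pair of libraries was identical.

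Groups were taken from the labels. The counts of all 45 livers were fitted together with edgeR 4.0.16 (R 4.3.3; TMM scaling, quasi-likelihood test, 1 coefficient per dose) over genes with more than 4 reads in any liver, with Benjamini-Hochberg adjustment over all 17464 genes within each contrast. Log2 CPM used a prior count of 2, RPKM the merged exon length of GENCODE M21 (GRCm38), and permutation tests 100000 resamples unless exact. The steps were tested on simulated data. Alternatives were DESeq2 1.42.0, other scaling, other filters, 2-group fits, adjustment over all doses and leaving out each liver.

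The genes and lists were chosen with earlier results of these data known. All 10 listed genes are named. From each other list are named at most the 4 genes with the lowest p in each direction at 30 µg/kg with a mean of at least 1 CPM, plus Glul, Cyp2e1, Cyp1a2, Ctnnb1, Wnt2, Wnt9b, Rspo3, Lgr4 and Tcf7l2, and for each called gene the 2 most similar genes. Wnt7b, Rspo1 and Mmp7 were named after their values were seen. The labels give neither the sequencing pool nor a batch, and they state both daily dosing and dosing every 4 days, of which the latter is used here.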

Additional observations from a re-analysis of the deposited data

Results flagged for a closer look

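In 4 of the 81 groups of 5 livers (9 genes in 9 groups), the highest or lowest liver stood apart from the other 4 by more than Dixon's 95% critical value, and chance alone flags about 1 in 20 groups. Axin2 in the 30 µg/kg liver of replicate 4 was 9.69 CPM, below the 13.4 to 14.9 CPM of the other 4. Tbx3 in the 0.1 µg/kg liver of replicate 4 was 89.9 CPM, the highest of all livers, against 38.1 to 47.7 CPM. That liver also had the largest share of unique reads off genes or ambiguous, 18.4% against at most 14.5% in any other. Whether this share bears on its Tbx3 level was not tested. Tbx3 in the 0.3 µg/kg liver of replicate 3 was 63.2 CPM, against 41.3 to 46.3 CPM. Znrf3 in the 1 µg/kg liver of replicate 4 was 17.0 CPM, against 13.6 to 14.4 CPM.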

How the results depend on the processing

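Across the alternatives other than leaving out a liver, 183 of 192 recomputed values kept their direction and, for single genes, their call, or, for counts, stayed within 1.5 times, so that a count could still gain or lose a gene. Without normalization beyond the library total, the median log2 fold change of all genes at 30 µg/kg moved from 0.02 to 0.23. Rnf43 then stood at 0.0513 and Oat at 0.162, both reversed in sign yet below that median, and the counts of lists at 30 µg/kg became 1 lower for receptors, 9 higher and 1 lower for transducers, 1 lower for inhibitors, 5 higher for macrophage markers and 7 higher for stellate cell markers. Fits of 2 groups alone called 3 Wnt genes at 10 µg/kg and 5 at 30 µg/kg, adding Tbx3 and Lgr5 (-0.50) in turn, and adjustment over all doses together left 3 at 30 µg/kg, without Tbx3. Leaving out 1 liver at a time gave 1 to 2 genes called at 10 µg/kg and 2 to 5 at 30 µg/kg, the latter with 2 without the 30 µg/kg liver of replicate 1, which ended the calls of Tbx3 and Nkd1. It gave 3 to 4 for the F test, and moved Oat between -0.138 and 0.0635, with 0.0635 without the replicate 5 vehicle liver and 0.0443 without the 30 µg/kg liver of replicate 2. The causes were not tested. No paired analysis was possible because the labels number no replicates across groups. Depth limits Sp5 most, with 9 reads in the shallowest case.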
